A study of Mus musculus with 4 samples.

Results

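The antigen receptor loci of the mouse are the 6 stretches of the genome that hold the T cell receptor genes (Tra with Trd, Trb and Trg) and the immunoglobulin genes (Igh, Igk and Igl). Accessible regions of natural killer (NK) cells were taken as members when they overlapped one of 6 fixed intervals of the GRCm38 assembly, by at least 1 bp. In all, 406 of the 91266 regions of the series, or 0.445%, were members. Of these, 111 lay in Tra/Trd (chr14:52400000-54300000), 60 in Trb (chr6:40890000-41560000) and 15 in Trg (chr13:19170000-19360000). Another 190 lay in Igh (chr12:113250000-116010000), 29 in Igk (chr6:67500000-70730000) and 1 in Igl (chr16:19000000-19300000).

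The regions come from an ATAC-seq experiment, in which a transposase cuts open chromatin, on cultured splenic NK cells. NK cells belong to the innate lymphocytes and need the cytokine interleukin-15 (IL-15) for survival, and the study compared doses of it. There were 4 samples, 2 biological replicates in a high dose (HD) and 2 in a low dose (LD) of IL-15, all of cells from wild-type C57BL/6 mice after 72 hours of treatment, with concentrations that the labels do not give. The authors deposited 1 list of accessible regions for all samples together and 2 lists of regions that differed between doses, named up and down. These tables hold positions only, so no value can be given per sample, no replicate error exists, and sequencing depth is unknown. The dose that the words up and down refer to is not given in the sources used here, so neither list is assigned to a dose.

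Antigen receptor genes are assembled in developing lymphocytes from separate V, D and J segments, each flanked by a recombination signal that the RAG1 and RAG2 recombinase cuts, and the assembled exon is spliced to a constant (C) segment. T cells assemble the Tr genes and B cells the Ig genes, while NK cells recognise targets through receptors encoded in the germline and do not need these rearrangements. Opening of the chromatin over promoters of V and D segments and over enhancers near the C segments is known to precede recombination in the lineage that uses a locus.

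Sequences were available for the gene starts and microRNAs of these loci, and a few that overlapped accessible regions are shown because the letters of the other members could not be read here. RefSeq (GRCm38.p6) gave 37 promoter windows of 300 bases (250 before to 50 after a gene's start) inside the 6 intervals, and 9 of them overlapped a region. None of the 9 belongs to a V, D, J or C segment: 3 belong to the protein-coding genes Dad1 and Abhd4 beside Trac, and the other 6 to predicted genes with Gm names. Motifs were searched on both strands, with no allowance made for overlap between motifs: TGTGGT for RUNX factors, GGTGTGA for T-box factors, TTCNNNGAA for STAT factors, ATGCAAAT for the octamer bound by OCT factors and TGANTCA for AP-1. Of all 32851 promoter windows, 16.8% held the RUNX letters, 3.98% the T-box letters, 8.30% the STAT letters, 1.74% the octamer and 7.81% the AP-1 letters. Of the 9 windows, 3 held a match to any of the 5 motifs and 6 held none. The 3 with a match are shown, with 1 of the others for contrast. Capitals mark matches, and each sequence is written 5′ to 3′ on the strand of its gene.
Gm30214 (minus strand, chr14:53039417-53039716): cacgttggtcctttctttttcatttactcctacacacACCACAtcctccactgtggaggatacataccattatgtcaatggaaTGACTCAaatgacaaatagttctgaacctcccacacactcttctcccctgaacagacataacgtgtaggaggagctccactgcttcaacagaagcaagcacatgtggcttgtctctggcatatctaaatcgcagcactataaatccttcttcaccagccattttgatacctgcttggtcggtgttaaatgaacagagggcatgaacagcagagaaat
Gm31887 (minus strand, chr13:19193634-19193933): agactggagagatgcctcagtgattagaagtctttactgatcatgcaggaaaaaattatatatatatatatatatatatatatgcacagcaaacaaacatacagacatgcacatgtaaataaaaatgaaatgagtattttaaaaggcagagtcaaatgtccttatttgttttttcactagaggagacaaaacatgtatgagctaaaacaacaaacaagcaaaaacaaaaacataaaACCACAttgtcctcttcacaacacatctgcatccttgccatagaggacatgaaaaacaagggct
Gm40899 (plus strand, chr12:114764158-114764457): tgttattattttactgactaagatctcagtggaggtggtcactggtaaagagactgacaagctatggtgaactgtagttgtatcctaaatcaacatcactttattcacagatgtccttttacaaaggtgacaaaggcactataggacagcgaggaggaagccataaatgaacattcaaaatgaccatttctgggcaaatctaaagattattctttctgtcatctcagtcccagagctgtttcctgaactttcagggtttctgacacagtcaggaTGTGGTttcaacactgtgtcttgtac
Dad1 (minus strand, chr14:54253880-54254179): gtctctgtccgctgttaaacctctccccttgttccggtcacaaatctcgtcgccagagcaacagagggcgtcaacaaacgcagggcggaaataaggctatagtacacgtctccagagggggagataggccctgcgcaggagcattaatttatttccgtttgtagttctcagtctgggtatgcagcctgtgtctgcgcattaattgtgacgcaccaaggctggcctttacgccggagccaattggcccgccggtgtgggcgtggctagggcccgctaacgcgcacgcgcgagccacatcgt

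The Gm30214 window is the only one of the 9 inside a listed region: all 300 of its bases lie in the 481-bp up region of the Trav cluster, with 1 RUNX match, written ACCACA on this strand, and 1 AP-1 match. The Gm31887 window shares 70 bases with a 541-bp region 1138 bp above Trgv5, and its RUNX match lies outside these. The Gm40899 window lies whole inside the 868-bp region over Ighv1-23 and holds 1 RUNX match. The Dad1 window is shared with Abhd4 in the opposite direction, lies in a 900-bp region, has a GC content of 57.3%, above the median of 52.7% for all windows, and holds no match. GC content was 44.3% in the Gm30214 window and 32.3% in the Gm31887 window. These matches are matches of letters in the windows, and binding of any factor was not measured.

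A microRNA pair also lay in accessible regions, among the Ighv1 segments. Mir7094-1 (chr12:114469407-114469466) lies whole inside an 890-bp region, and Mir7094-2 (chr12:114513635-114513694) overlaps a 646-bp region that ends before the hairpin does. The 60-base hairpins differ by 1 substitution, A5G, counted from 1 at the 5′ end of the first. Their mature sequences are given with the seed (bases 2 to 8) in capitals.
miR-7094-1-5p: uCUGAAGAggauacagggucuga
miR-7094b-2-5p: uCUGGAGAggauacagggucuga
miR-7094-3p (both hairpins): uACUCUGCuguucucuccaca
The 3p arms share a seed, and the substitution puts the 5p arms in different seed groups. Neither region is in the up or the down list. The hairpin of Mir6388, the other microRNA of the Igh interval in the table, overlapped no region.

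Accessible regions were denser than the genome-wide mean in the 3 T cell receptor loci and in Igh, and sparser in Igk and Igl. The 6 intervals together held 44.9 regions per Mb (95% Poisson interval 40.6 to 49.4, covering counting error only), which is 1.31-fold the 34.3 per Mb of the 21 chromosomes as a whole. The T cell receptor loci held 186 regions in 2.76 Mb, or 67.4 per Mb. The immunoglobulin loci held 220 regions in 6.29 Mb, or 34.98 per Mb, but these were nearly all in Igh: the light chain loci Igk and Igl held 30 regions in 3.53 Mb, or 8.50 per Mb, 0.248-fold the genome-wide value.

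Trb, which encodes the beta chain, had the highest density at 89.6 regions per Mb (68.3 to 115), 2.61-fold the genome-wide value. Its flanks of the same length held 40.3 and 23.9 per Mb, both below the interval of the locus. Trg, which encodes the gamma chain, held 78.9 per Mb (44.2 to 130), with 31.6 and 89.5 per Mb in its flanks. Igh, the heavy chain locus, held 68.8 per Mb (59.4 to 79.4), between its flanks at 97.1 and 54.0 per Mb. Tra/Trd, in which the delta chain genes lie inside the alpha chain locus, held 58.4 per Mb (48.1 to 70.4), equal to its low-coordinate flank and below the 82.1 per Mb of the other. The counting intervals of these 4 loci overlap one another, so their order is not resolved. The folds moved by over 1.5 times when regions within 2 kb of a protein-coding gene were left out, to 5.13 in Trb, 3.39 in Igh (from 2.01), 2.82 in Tra/Trd (from 1.70) and 0.413 in Igk (from 0.262), with Trg at 3.45 (from 2.30).

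Igk, the kappa light chain locus, held 8.98 per Mb (6.01 to 12.9), against 50.2 and 56.0 per Mb in its flanks. Igl, the lambda light chain locus, held a single region, or 3.33 per Mb (0.0844 to 18.6), and its flanks of the same length held 15 regions and 0 regions. The contrast between Igh and Igk was therefore 68.8 against 8.98 per Mb, with counting intervals far apart.

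Other multigene stretches spanned the same range. The Klra cluster, which encodes Ly49 receptors of NK cells, held 58.6 regions per Mb (46.7 to 72.6), an interval that overlaps those of Tra/Trd, Trb, Trg and Igh. The histocompatibility complex from H2-K1 to H2-M2 held 103.5 per Mb. Olfactory receptor clusters, whose genes are known for expression in the nose, held 3.75 per Mb (2.26 to 5.85) on chromosome 2 and 17.98 per Mb (13.4 to 23.6) on chromosome 7. Igk lay between these olfactory clusters. Each locus was also set against windows of its own length placed end to end along the genome. As many regions as in the locus or more were held by 7.96% of windows for Trb, 10.2% for Igh, 17.1% for Trg and 22.01% for Tra/Trd. As few or fewer were held by 18.7% of windows for Igk and 31.3% for Igl. Densities as high as those of Tra/Trd and Trg, and as low as those of Igk and Igl, were thus not rare in the genome.

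**Figure D1:**
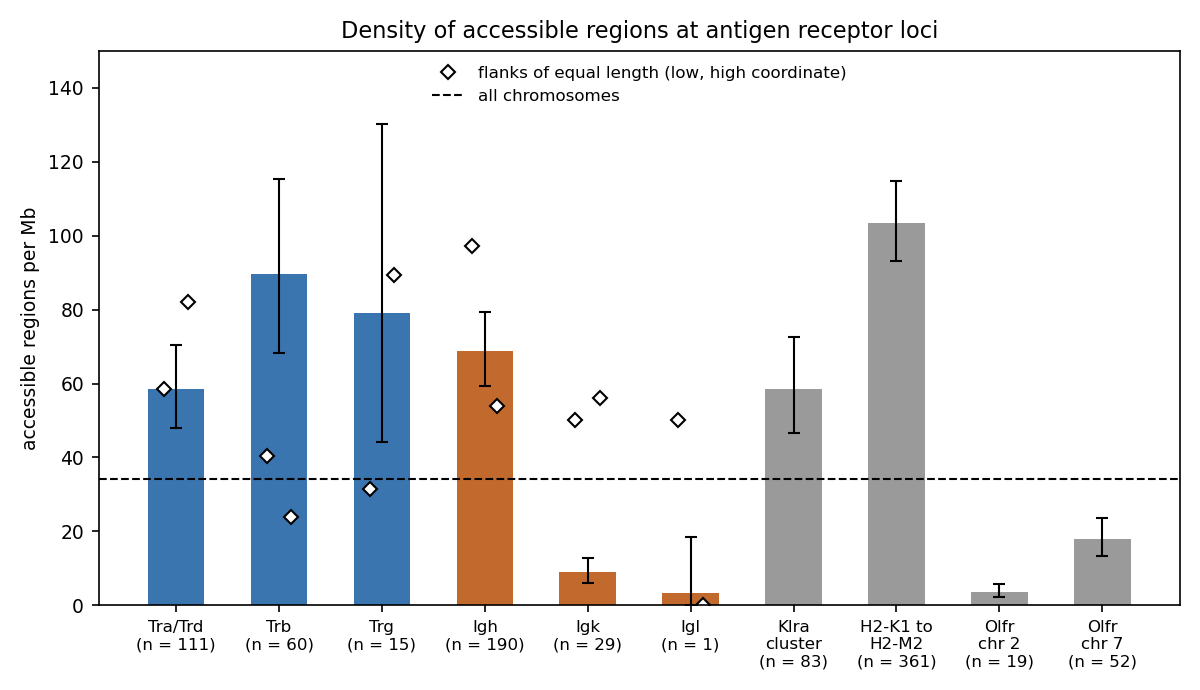
Accessible regions per Mb (vertical axis) in the 6 receptor loci (blue, T cell receptor; orange, immunoglobulin) and in 4 comparison stretches (grey), with 95% Poisson intervals as error bars, the flanks of each locus as open diamonds and the value of all chromosomes as a dashed line. Trb stands at 89.6 per Mb, above both of its flanks, and Igk at 8.98 per Mb, below both of its flanks.

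Few regions of the receptor loci were in the authors' lists. In all, 6 members were up, 1.48% of the 406 (exact binomial interval 0.544 to 3.19), where 4.21% of all regions of the series are in the up list. A further 8 were down, 1.97% (0.854 to 3.85), where 1.4% of all regions are in the down list. Together, 14 members were listed, 3.45% (1.90 to 5.72), against 5.61% of all regions. The share of up regions thus had an interval that ends below the background, while the shares of down and of all listed regions had intervals that include it. Neighbouring regions are not independent, so these intervals are narrower than the true uncertainty.

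The T cell receptor loci held 3 up and 6 down regions of 186, and the immunoglobulin loci 3 up and 2 down of 220. All 3 up regions of the T cell receptor loci lay in Tra/Trd, which also held 2 down regions. Trb held 0 up and 3 down regions of 60 (5%, 1.04 to 13.9, for down), Trg 0 and 1 of 15, Igh 3 and 1 of 190, Igk 0 and 1 of 29, and Igl none. The difference between loci in these shares was not tested, and the counts are small. For comparison, the Klra cluster held 0 up and 4 down regions of 83, and the histocompatibility complex 3 and 3 of 361.

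The 14 listed regions were scattered: for each of them, the nearest region on either side was in neither list. They were 229 to 723 bp wide with a median of 435.5 bp, and none was over 1000 bp. Of the 14, 6 overlapped a receptor segment and 8 did not, and none overlapped a protein-coding gene.

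Among the listed regions of Tra/Trd, the 3 up regions lay between V segments and overlapped none. The first (chr14:53039342-53039822, 481 bp) covers the Gm30214 start shown above and lies 2605 bp below Trav8d-2, at the edge of the longest region-free stretch of the locus. The second (chr14:53582544-53582844, 301 bp) lies 3626 bp below Trav3-2, and the third (chr14:53943343-53943716, 374 bp) lies inside Gm30392, 2356 bp below Trdv2-1, a delta chain V segment. Both down regions lay at delta chain segments. One (chr14:54001158-54001582, 425 bp) overlaps Trdv3, as does an unlisted region of 581 bp only 167 bp below it. The other (chr14:54124899-54125398, 500 bp) lies 1710 bp above Trdj1, inside Gm30275, with the nearest regions 966 bp below and 12636 bp above it.

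In Trb, the down regions lay on segments. One (chr6:41118222-41118944, 723 bp) overlaps Trbv12-2 and is the widest of the 14. The remaining Trb regions in the list lie in the duplicated D-J-C units of the locus, each of which holds 1 D segment, a row of J segments and 1 C segment. The down region of the first unit (chr6:41534851-41535079, 229 bp) overlaps Trbj1-4, and that of the second (chr6:41543444-41543679, 236 bp) overlaps Trbj2-5 and Trbj2-6. Their centres lie 1764 bp and 1398.5 bp past the start of the D segment of their unit. In each unit the wide region over the D segment just below, of 1269 bp at Trbd1 and 1476 bp at Trbd2, is in neither list. The down region of Trg (chr13:19195451-19195824, 374 bp) lies 2725 bp above Trgv5, with an unlisted region of 541 bp between them.

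Of the Igh regions in the lists, 1 up region (chr12:113305879-113306327, 449 bp) lies inside Ighg2b, which encodes the constant part of an IgG subclass. A second up region (chr12:114538327-114538796, 470 bp) overlaps Ighv1-7, and the third (chr12:115388489-115389017, 529 bp) lies 1500 bp above Ighv1-62-1. The down region of Igh (chr12:115171800-115172245, 446 bp) lies 5722 bp above Ighv8-6. The down region of Igk (chr6:68201515-68201878, 364 bp) lies 18102 bp below Igkv2-112, after 388720 bp with no region.

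**Figure D2:**
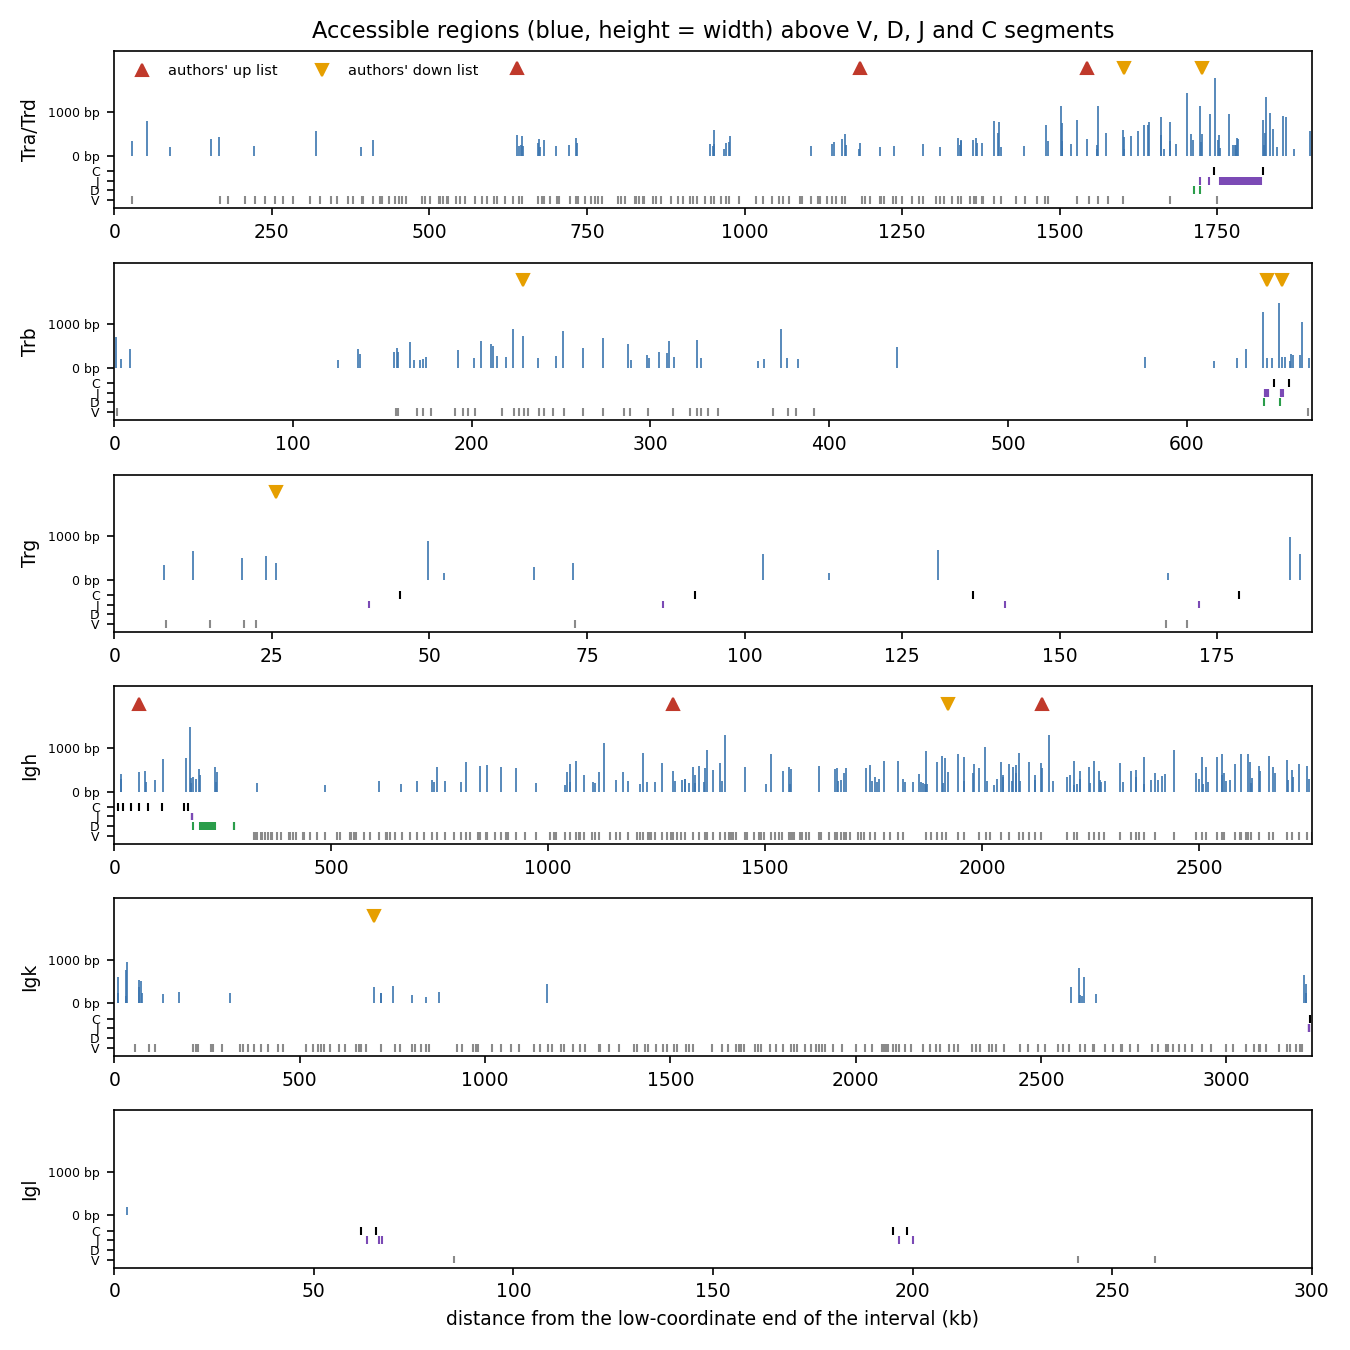
Position of each accessible region along the 6 loci as distance in kb from the low-coordinate end of each interval (horizontal axis). Blue lines are regions, with height as width in bp. Ticks underneath are V, D, J and C segments. Triangles mark the 6 up and 8 down regions, which stand apart from one another, and the middle of Igk is empty over 1410 kb.

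Members were slightly narrower than regions in general, with a median width of 367 bp against 400 bp. Median widths were 360 bp in Tra/Trd, 293.5 bp in Trb, 492 bp in Trg, 411.5 bp in Igh and 272 bp in Igk, and the region of Igl was 184 bp wide. Widths over 1000 bp were seen in 14 members, or 3.45%, against 9.18% of all regions. Of these 14, 3 lay over D segments (Trdd2, Trbd1 and Trbd2), 3 over V segments (Trdv2-2, Ighv1-15 and Ighv8-7), and 8 off any segment, at 28 to 18879 bp from the nearest one. The widest of all, 1782 bp (chr14:54146137-54147918), begins 28 bp past Trdc, the constant segment of the delta chain. The widest of Trb was the 1476-bp region at Trbd2, and the widest of Igh, 1474 bp (chr12:113424229-113425702), lies 1498 bp from Ighm on its J side.

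**Figure D3:**
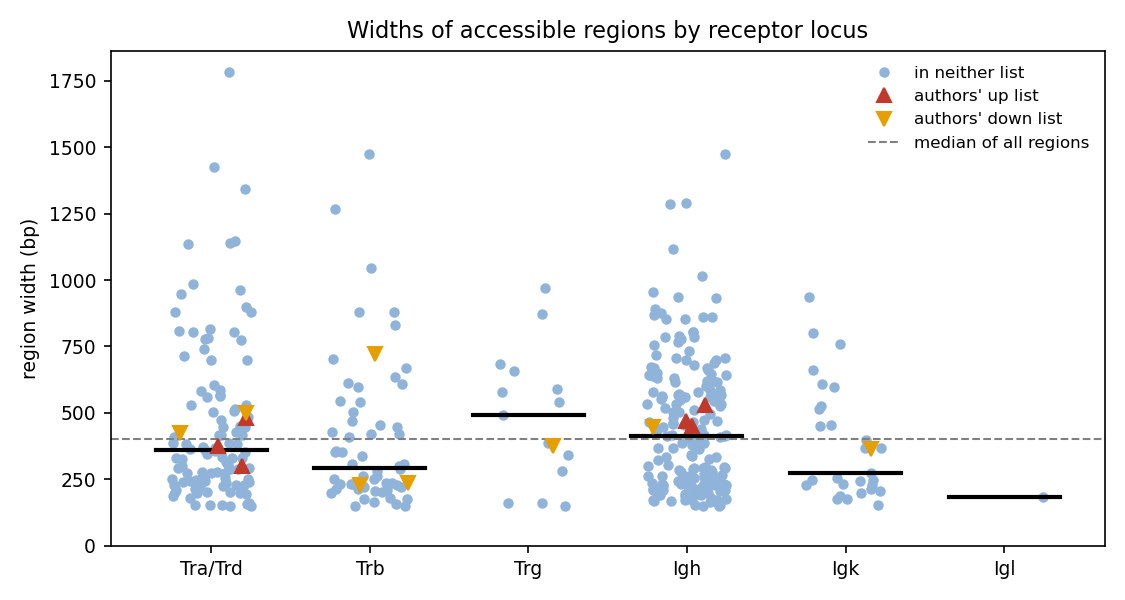
Width in bp of every accessible region (points) by receptor locus, with the median of each locus as a black bar and the median of all regions of the series (400 bp) as a dashed line. Up and down regions are marked by triangles and lie between 229 and 723 bp, while the widest unlisted regions reach 1782 bp.

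Enhancers of receptor loci are known to lie beside C segments, and accessible regions were found in most of these stretches of the T cell receptor loci. Trac, the constant segment of the alpha chain, was overlapped by 1 region of 817 bp, and the 11.3 kb from Trac to Dad1, which hold the alpha chain enhancer, held 4 regions of 242, 514, 1344 and 987 bp. The stretch of 6.01 kb between Trdj2 and Trdc, where the delta chain enhancer lies, held 1 region of 948 bp. In Trb, the 9.51 kb from Trbc2 to Trbv31, which hold the beta chain enhancer, held 4 regions, of 308, 300, 287 and 1047 bp. Trbc2 itself was overlapped by a region of 150 bp and Trbc1 by none. None of these regions was listed.

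The 4 C segments of Trg were overlapped by no region, but each had one on its 3′ side, where the gamma chain enhancers are known to lie. Those regions were 874 bp wide at 2794 bp past Trgc1, 590 bp at 9184 bp past Trgc3, 683 bp at 4056 bp past Trgc2 and 971 bp at 3713 bp past Trgc4. The J segments of Trg were also free of regions, and of its 7 V segments Trgv6 and Trgv3 were overlapped.

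Few D and J segments were themselves overlapped, at 4 of 24 D segments (16.7%) and 7 of 94 J segments (7.45%). Both Trbd segments and Trdd2 were among the overlapped D segments. D and J entries are much shorter than V entries, which by itself makes an overlap less likely. With a region within 1 kb the shares were 25% for D, 33.0% for J and 30.6% for V segments. Within 5 kb they were 41.7%, 54.3% and 40.4%. The alpha chain J cluster, with 60 Traj segments, held 7 regions of 159 to 963 bp, all on the side toward Trdc. Its last 34 segments, from Traj35 to Traj1, held none, and the 38.7 kb from the last of the 7 to the region over Trac were empty.

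In Igh, the 5.78 kb between Ighm and the J segments, which hold the intronic heavy chain enhancer, had 3 regions of 1474, 192 and 300 bp, or 519 per Mb. Ighd had 1 region of 755 bp and Ighg2b the up region named above, and the other 6 of 8 heavy chain C segments had none. The Ighd cluster of 96.3 kb held 7 regions, and the 46.1 kb from Ighd5-1 to the first V segment, Ighv5-1, held none. In Igk, the 2.51 kb between Igkj5 and Igkc, which hold the intronic kappa enhancer, had no region and Igkc had none. The 18.4 kb between the last V segment and the J segments had 3 regions, of 660, 228 and 453 bp, or 163 per Mb. No region overlapped or lay within 5 kb of any V, J or C segment of Igl.

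Among all V segments, 133 of 527 (25.2%, exact interval 21.6 to 29.2) were overlapped by a region. The share was 92 of 184 in Igh (50%, 42.6 to 57.4), 14 of 35 in Trb (40.0%, 23.9 to 57.9), 20 of 136 in Tra/Trd (14.7%, 9.22 to 21.8) and 5 of 162 in Igk (3.09%, 1.01 to 7.06). Of the 3 V segments of Igl, none was overlapped. The order of the loci depended on the distance allowed: with a region within 1 kb of the segment the shares were 54.3% in Trb, 52.7% in Igh, 26.5% in Tra/Trd and 3.09% in Igk, and within 5 kb they were 94.3%, 60.3%, 39.0% and 5.56%. Igk, which like Igh serves B cells, had the lowest of these 4 shares at each distance. Many V segments are near copies of one another, and how reads that match several copies were treated is not given in the sources used here.

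The share overlapped was smaller among pseudogenes, as RefSeq types them, than among other V segments in Igh and Trb and larger in Tra/Trd, differences that were not tested. In Igh, 76 of 121 other segments were overlapped (62.8%, 53.6 to 71.4) and 16 of 63 pseudogenes (25.4%, 15.3 to 37.9). In Trb the counts were 14 of 22 (63.6%, 40.7 to 82.8) and 0 of 13 (upper bound 24.7%), although all 13 had a region within 5 kb. In Tra/Trd they were 15 of 119 (12.6%) and 5 of 17 (29.4%), with overlapping intervals. Segments of one locus share their samples and neighbours, so these intervals describe counting error alone.

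The Igh V families differed, and so did the ends of the V cluster. Ighv1, the largest family, had 56 of 92 segments overlapped (60.9%, 50.1 to 70.9), Ighv8 had 12 of 16 (75%, 47.6 to 92.7) and Ighv9 had 4 of 4. Ighv5 had 3 of 21 (14.3%, 3.05 to 36.3), Ighv3 had 1 of 8, and Ighv2 had 0 of 11 (upper bound 28.5%). Ighv5 and Ighv2 are the families nearest to the D segments, and family and position cannot be told apart there. When the V part was divided into 5 equal lengths from the constant side outward, the lengths held 11, 25, 36, 55 and 45 regions, or 22.6 to 113 per Mb. The longest region-free stretch of Igh, 157 kb (chr12:113578534-113735977), lies in the first of these and contains 16 V segments, from Ighv2-2 to Ighv2-6.

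**Figure D4:**
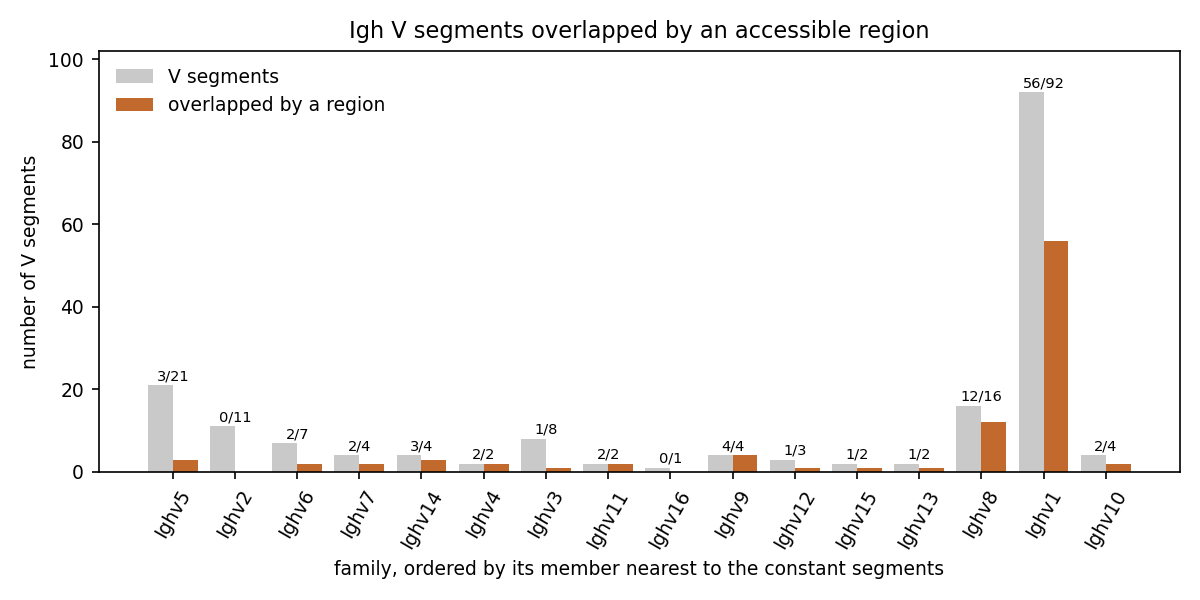
Number of Igh V segments in each family (grey bars) and number overlapped by an accessible region (orange bars), with both counts printed above, families ordered from the constant side. Ighv1 has 56 of 92 overlapped and Ighv8 12 of 16, against 0 of 11 for Ighv2 and 3 of 21 for Ighv5.

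Where a region overlapped the RefSeq entry of an Igh V segment, it reached the end that carries the recombination signal. Mouse Igh V segments are read from high to low coordinate, so their low end is the 3′ end, beside the signal. All 92 overlapped segments had a region across the 3′ end, 50 of them across both ends, and none across the 5′ end alone. The centre of the region lay on the 3′ side of the segment's centre in 87 of 92 cases, by a median of 140.5 bp over all 92. In Ighv1 the regions were wide, with a median of 626 bp, and 46 of 56 covered the segment whole. In Ighv8, 2 of 12 covered it whole, with a median shift of 265 bp, and in the other families 2 of 24, with a median width of 239.5 bp and a median shift of 203 bp. Regions of the Igh V part that overlapped a V segment numbered 92 and had a median width of 567 bp, while the 80 that did not had a median of 254.5 bp. Wider regions reach a segment more readily, so grouping by overlap itself favours this contrast in width. Of the 80 off the V segments, 17 lay within 1 kb of a V segment, 13 on its 5′ side and 4 on its 3′ side. The Igh entries are short, with a median length of 294 bp, against 502 bp for Tra/Trd and 454 bp for Trb, so a region at the promoter of an Igh V segment can fall outside its entry.

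**Figure D5:**
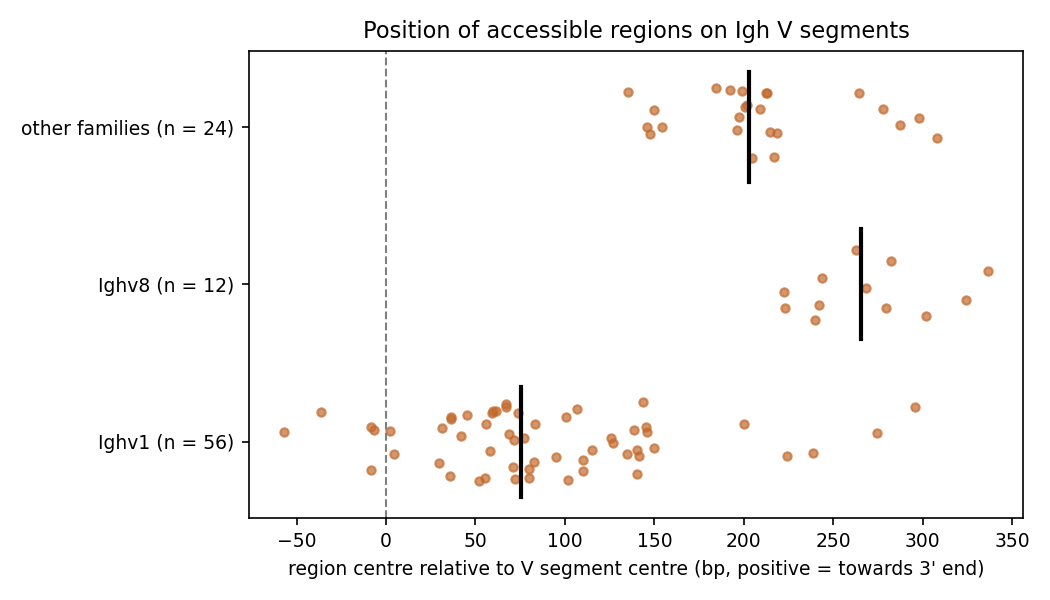
Distance in bp from the centre of each Igh V segment to the centre of the region over it (horizontal axis, positive toward the 3′ end that carries the recombination signal), by family, with each family's median as a black bar. Points of Ighv8 and of the other families all lie to the right of 0, and Ighv1 lies closer to 0, with 5 of 56 points to the left.

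In the T cell receptor loci, whose entries are longer, the ends were counted in the same way. Tra/Trd V segments are read from low to high coordinate, except Trdv5. Of the 20 overlapped segments there, 12 had a region across the 5′ end alone, where the promoter and leader exon lie. A further 6 (Trav16d-dv11, Trav13d-4, Trav16n, Trav16, Trdv3 and Trdv4) had 2 separate regions, 1 at each end, and Trav13-5 and Trdv2-2 had 1 region across both ends. Counted by region, 18 crossed a 5′ end alone, 6 a 3′ end alone and 2 both ends, whereas each of the 50 Igh segments covered at both ends was spanned by 1 region. Of the 14 in Trb, 7 had a region across the 5′ end alone and 7 across the 3′ end alone. The former were Trbv1, Trbv12-1, Trbv12-2, Trbv15, Trbv20, Trbv23 and Trbv24, and the latter Trbv2, Trbv3, Trbv5, Trbv16, Trbv17, Trbv19 and Trbv21. Of the segments covered at 1 end only, all 42 in Igh were covered at the 3′ end and all 12 in Tra/Trd at the 5′ end. The part of entry length in this contrast was not tested. Among the longest overlapped Igh entries, Ighv5-2 (487 bp), Ighv7-4 (467 bp) and Ighv11-2 (464 bp) were covered at the 3′ end alone and Ighv1-59 (457 bp) at both ends. Of the regions off the segments but within 1 kb of one, 16 of 18 in Tra/Trd and 4 of 6 in Trb lay on the 5′ side, as did the 13 of 17 in Igh. These counts leave out Trdv5 and Trbv31, which lie beyond C segments and have a region at 743 bp and 6 bp. Orientation was taken from the known structure of the loci, since the gene table gives no strand.

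Within Tra/Trd the regions gathered toward the delta chain segments. The V part, divided into 5 equal lengths from the outer end inward, held 6, 11, 12, 16 and 34 regions, or 18.2 to 103 per Mb. The part from the last of these V segments to the end of Trac held 21 regions in 149 kb, or 141 per Mb (87.4 to 216), against 48.0 (38.0 to 59.8) in the V part. Of the 6 segments that RefSeq names Trdv, Trdv1, Trdv2-2, Trdv3 and Trdv4 were overlapped and Trdv2-1 and Trdv5 were not. The longest region-free stretch, 228 kb (chr14:52810969-53039341), holds 26 V segments and ends at the up region over Gm30214.

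The Trav cluster of this strain is made of repeated blocks, and the regions called over copies of one family can be set side by side. How reads that match several copies were treated is not given. A difference between copies in called regions therefore need not be a difference in accessibility. Each of the 3 Trav16 segments (Trav16d-dv11, Trav16n and Trav16) was overlapped by a pair of regions, with 291, 156 and 324 bp between the regions of a pair. Trav15d-3, Trav15n-3 and Trav15-3 had 1 region each, of 358, 314 and 415 bp. The copies of Trav14-1 did not match in this way: Trav14-1 had a region of 386 bp, while the next region lay 44696 bp from Trav14d-1 and 31645 bp from Trav14n-1. The Trav13-4 copies differed too, with a pair of regions over Trav13d-4 and none over Trav13n-4 or Trav13-4-dv7. Trav7 had 0 of 14 segments overlapped and Trav9 had 0 of 11.

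In Trb the regions were concentrated over part of the V cluster. The V part held 42 regions in 391 kb, or 108 per Mb (77.5 to 145), and the third of 5 equal lengths held 16 of them, at 205 per Mb. From Trbv30 to Trbd1, a stretch of 251 kb that is known to hold trypsinogen genes, there were 6 regions, or 23.9 per Mb, and within it lay the longest region-free stretch of the locus, 138 kb (chr6:41328403-41466387).

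Igk was empty over much of its length. No region lay in 1410 kb (chr6:68668824-70079288), which is 43.7% of the interval and holds 80 V segments, from Igkv2-95-1 to Igkv6-32. The families Igkv4, with 33 segments, and Igkv13, with 19, had none overlapped. Overlapped segments belonged to Igkv2 (2 of 10), Igkv8 (2 of 13) and Igkv11 (1 of 4).

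Genes that act with these loci were read from fixed lists. Rag2, 1 of the recombinase genes, had 1 region in the gene, Dntt, which adds bases at the joints, had 3, and Rag1 had none in the gene and 1 within 1 kb of an end. Of the CD3 chains that carry the T cell receptor's signal, Cd3d, Cd3e and Cd3g had 1 region each, and Cd247, whose zeta chain also serves NK cell receptors, had 18 in 91.2 kb. Ptcra, the partner of the beta chain in developing T cells, had none. Cd79a, Cd79b, Vpreb1 and Igll1, which form the B cell receptor complex and the surrogate light chain, had no region in the gene, and Cd79a had 1 within 1 kb of an end. None of the regions in these genes was listed.

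The label of the cells was checked against markers. All 9 NK markers (Ncr1, Klrb1c, Klrk1, Klrd1, Il2rb, Eomes, Tbx21, Gzma and Prf1) had a region in the gene, 41 in 114 kb, of which 7 were down, where 1.4% of all regions are in the down list. Of the T cell markers, 6 of 9 had one, 15 in 213 kb, 1 of them down, and Cd4, Cd8a and Cd8b1 had none in the gene. Of the B cell markers, Pax5 had 6 regions, Ebf1 12, Blk 2 and Cd22 2, of which 1 in Ebf1 and 1 in Blk were up, where 4.21% of all regions are in the up list. Cd79a, Cd79b and Ms4a1 had none in the gene. Of the myeloid markers, 2 of 6 had a region, none of them listed. Of the innate lymphoid 2 and 3 markers, 4 of 4 did, with 26 regions of which 3 were down, 1 in Gata3 and 2 in Il23r. A share of other lymphocytes in the cultures as a source of receptor locus regions was not tested, since the tables hold no value per sample or per cell.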

How the data were processed

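Per the labels' protocols, ATAC-seq libraries were made from cell suspensions of each biological replicate and amplified by PCR. The authors deposited 3 tables of positions, read here as other values with no unit (chromosome, start, end and, for all regions, width in bp). The submitters' processing notes name BWA, ArchR, MACS2, HOMER 4.11.1 and the build mm10, without their roles. Whether samples were pooled for calling regions is not given in the sources used here, nor are the differential test and its threshold. Starts in the table of all regions were raised by 1 base, after which each up or down region matched a region of it. Segments, genes, promoters and microRNAs came from RefSeq tables of GRCm38.p6, with segment class read from the RefSeq gene type and V family from the symbol. Counts per Mb carry exact Poisson and shares exact Clopper-Pearson intervals, at 95%, computed with Python 3.11.15, pandas 2.3.3, numpy 2.4.6 and scipy 1.17.1. The Poisson interval function was tested on simulated data, and the Clopper-Pearson function was not. A moved value is one changed by over 1.5 times. The genome-wide density used 2661 Mb, from first to last region or gene of each chromosome. Regions named are all listed members, the widest region and longest empty stretch of each locus, the C segments and a fixed gene list; some of these items are not reported here. Further segments, families and stretches were picked with their values in view. The loci, lists and rules were chosen with earlier results of these data known. The tables hold 0 columns of values per sample, so samples were grouped by dose from their titles but not compared.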

Additional observations from a re-analysis of the deposited data

How the results depend on the processing

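Of 73 alternative values for 19 results, 57 stayed within 1.5 times of the reported value, 16 moved and 0 reversed direction. Leaving out regions within 2 kb of a protein-coding gene, with the genome length reduced to match, moved the density relative to the genome to 2.82-fold in Tra/Trd, 5.13-fold in Trb, 3.39-fold in Igh, 0.413-fold in Igk and 0.167-fold in Igl. The single Igl region left a density of 0 when regions under 200 bp were left out, 0 when regions no wider than the median were left out, 0 over the span of the segments alone, and 0.0355-fold by base pairs covered. With regions wider than the median only, 4 down members were left instead of 8. Counting V segments with a region within 1 kb gave 36 in Tra/Trd and 4 in Trg, and within 5 kb gave 53 in Tra/Trd, 33 in Trb, 7 in Trg and 9 in Igk. No paired analysis was possible because the tables hold no value per sample, and for the same reason no replicate could be left out. Depth is unknown, so a stretch without a region may hold accessibility too weak to be called.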
